A study of Mus musculus with 16 samples.

Results

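The regions described here are stretches of liver RNA that carried a peak of N6-methyladenosine (m6A) in 3 or 4 more mice of one genotype than of the other. They were chosen by the presence of listed peaks in these same data. Peaks of 8 lists, 1 per mouse, were merged wherever they shared at least 1 base within the same gene, mice with a peak were counted, and regions whose counts differed by 3 or 4 were kept. Of 17936 regions, 205 met this rule (1.14%). In 86 of them db/db mice had more peaks (db-biased, 0.479% of all regions) and in 119 lean mice did (lean-biased, 0.663%). They lay in 186 genes, and 0 genes held members of both directions. The study measured m6A by methylated RNA immunoprecipitation and sequencing in livers of 4 male lean C57BL/6 mice and 4 male db/db mice. Mice labelled db/db carry a mutated leptin receptor and become obese and diabetic. The labels give the strain of the second group as db/db alone, so that its background strain, and the age of either group, are not given in the sources used here. A whole liver is a mixture of cell types, and fewer cells of a type, less RNA per cell and less methylation of that RNA cannot be told apart in these lists.

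The m6A mark is placed on adenosines of mRNA by a writer complex around Mettl3 and is bound by reader proteins that alter splicing, translation and decay. Known sites are dense in long exons, around stop codons and in the last exon. Antibodies to m6A also bind m6Am, a related mark on an adenosine next to the cap, so that a peak at the very start of a transcript can hold either mark.

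Sequences are shown for 12 members that lay over an annotated start of their gene, because a peak edge fell on or near the first transcribed base there. For Folr2 this start was inside the gene, and its region lay at 0.693 of the gene's length from the 5′ end. Each sequence is the first 30 bases from the start annotated by RefSeq (build GRCm38.p6, with positions as in mm10), on the transcribed strand. Capitals mark the first base and any GGAC, a core often found at m6A sites. The first 5 are db-biased and the last 7 lean-biased.
Cyp4a32, chr4:115600938-115600967, plus strand: GtgagagtgaGGACagcaacagaagagtgg
Cyp2b13, chr7:26061495-26061524, plus strand: AagcagactcttgttagaccGGACcatgga
Gm3776, chr9:78257129-78257158, plus strand: Ttactaaagtagcgtgcacactcctctgga
Gm10639, chr9:78289928-78289957, plus strand: Ttactaaagtatcgtgcacactcctctgga
Lcor, chr19:41482682-41482711, plus strand: Agaagatggcgagggtgtgtaggcggcagc
Hamp2, chr7:30924152-30924181, minus strand: Gacagccaccacacaagtccttagactgca
Hsd3b5, chr3:98645505-98645534, minus strand: Gcatccagatcaagaagggaactgtgcctg
Folr2, chr7:101845302-101845331, minus strand: Attccgtgcttaccaaagcttctatgtggg
Fam193a, chr5:34369933-34369962, plus strand: TttccccttgtgtccgccatattGGACtct
Pias1, chr9:62980850-62980879, minus strand: GacgcaagatggcGGACagtgcggaactaa
Hist1h3c, chr13:23745492-23745521, minus strand: Acttttgtgtatctcctcccaagaatggct
Abt1, chr13:23423837-23423866, minus strand: Agattcacggctgtcgtgctccccagatct
Gm3776 and Gm10639, neighbouring predicted genes, shared 29 of these 30 bases, with G12T as the difference from Gm3776 to Gm10639, counted from 1 at the start. Over their whole start windows, 250 bases before to 50 after the start, 258 of 298 aligned bases were equal (86.6%).

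A region can meet the rule only with a peak in 3 or more mice, which 2195 regions had. Of these, 3.92% were db-biased and 5.42% lean-biased. The most one-sided case, 4 mice against 0, was met by 13 db-biased regions (0.0725% of all) and 17 lean-biased regions (0.0948%). A further 58 db-biased regions had 3 db/db mice and 0 lean mice, and 15 had 4 and 1. Of the lean-biased regions, 65 had 3 lean mice and 0 db/db mice, and 37 had 4 and 1. The lists held 2475 to 4807 peaks, on average 3882 ± 848 for db/db and 3192 ± 833 for lean (SD over 4 mice per genotype). By a two-sided exact permutation test p was 0.314, and sequencing depth was unknown. When every list was shortened to its 2475 peaks of highest fold, 43 regions were db-biased and 118 lean-biased. Of the 86 and 119 members, 35 and 79 then still met the rule. Without any 1 db/db mouse, when all 3 others must have a peak, 23 to 33 regions were db-biased, and without any 1 lean mouse 31 to 38 were lean-biased. Leaving out a lean mouse gave 126 to 158 db-biased regions, and leaving out a db/db mouse 165 to 200 lean-biased ones, the latter without db/db mouse 3.

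**Figure D1:**
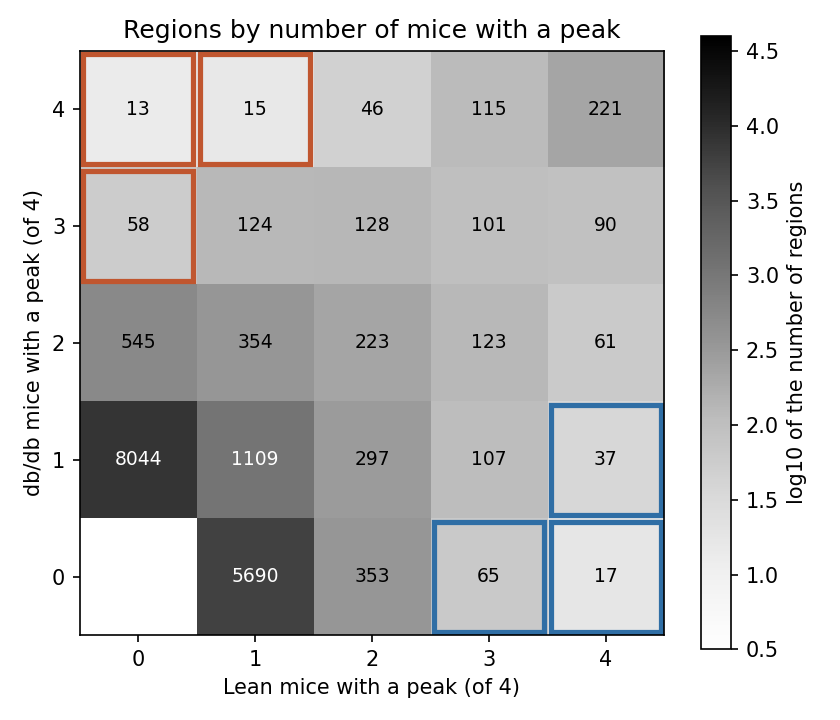
Number of regions by how many db/db mice (vertical axis, of 4) and lean mice (horizontal axis, of 4) had a peak; shading is the log10 of the number. Outlined cells hold the members, 86 above the diagonal (orange, db-biased) and 119 below it (blue, lean-biased), against 8044 and 5690 regions seen in 1 db/db or 1 lean mouse only.

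Members were spread over all mice of the genotype that had more of them. Of the 86 db-biased regions, db/db mice 1, 2, 3 and 4 had a peak in 75, 69, 76 and 66, and lean mice 1 to 4 in 8, 2, 1 and 4. Of the 119 lean-biased regions, lean mice 1 to 4 had 105, 104, 98 and 104, and db/db mice 1 to 4 had 11, 9, 11 and 6. The order did not follow the length of the lists, since db/db mouse 4 had the second longest db/db list (4251 peaks) and the fewest db-biased regions. Among the lean mice, mouse 3 had both the shortest list and the fewest lean-biased regions. Which mouse lacked the peak varied: in the 58 regions with 3 db/db mice, mouse 4 lacked it in 20 and mouse 3 in 10, and in the 65 with 3 lean mice, mouse 3 lacked it in 21 and mouse 1 in 14. These counts follow from the rule and are a description.

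**Figure D2:**
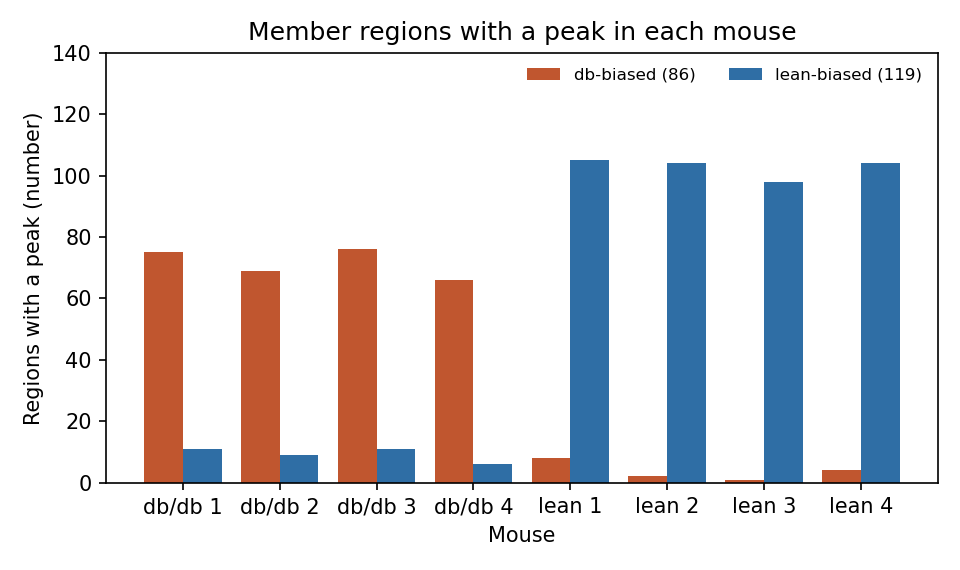
Member regions with a peak (vertical axis, number) in each of the 8 mice (horizontal axis), orange for the 86 db-biased and blue for the 119 lean-biased regions. Each db/db mouse had 66 to 76 db-biased regions and each lean mouse 98 to 105 lean-biased ones.

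Fold enrichment is the authors' value for each peak; what it was taken against is not given in the sources used here. It is also given as a percentile within the mouse's own list. Since a peak is listed only past a threshold, folds of members belong to the same contrast as the rule and are described without a test. The median fold of a db-biased region was 10.3 (48.6th percentile) and of a lean-biased region 12.3 (55.0th percentile). This order was not stable. It turned to 15.9 and 13.7 with lists of equal length, to 13.4 and 12.9 without db/db mouse 1, to 14.7 and 12.1 without db/db mouse 2 and to 14.7 and 12.5 without db/db mouse 3. For comparison, 1125 balanced regions, with a peak in 3 to 5 mice and counts that differed by 0 or 1, had a median fold of 10.8, and all regions 10.5. The medians of the whole lists averaged 10.9 ± 0.806 for db/db and 11.5 ± 1.54 for lean (SD over 4 mice per genotype), with an exact permutation p of 0.543. Among the db-biased regions, those with 4 db/db and 0 lean mice stood higher, with a median fold of 18.3, than those with 3 and 0 (9.49) or 4 and 1 (9.46). Lean-biased regions did not follow that order, with 11.4, 12.5 and 12.1.

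**Figure D3:**
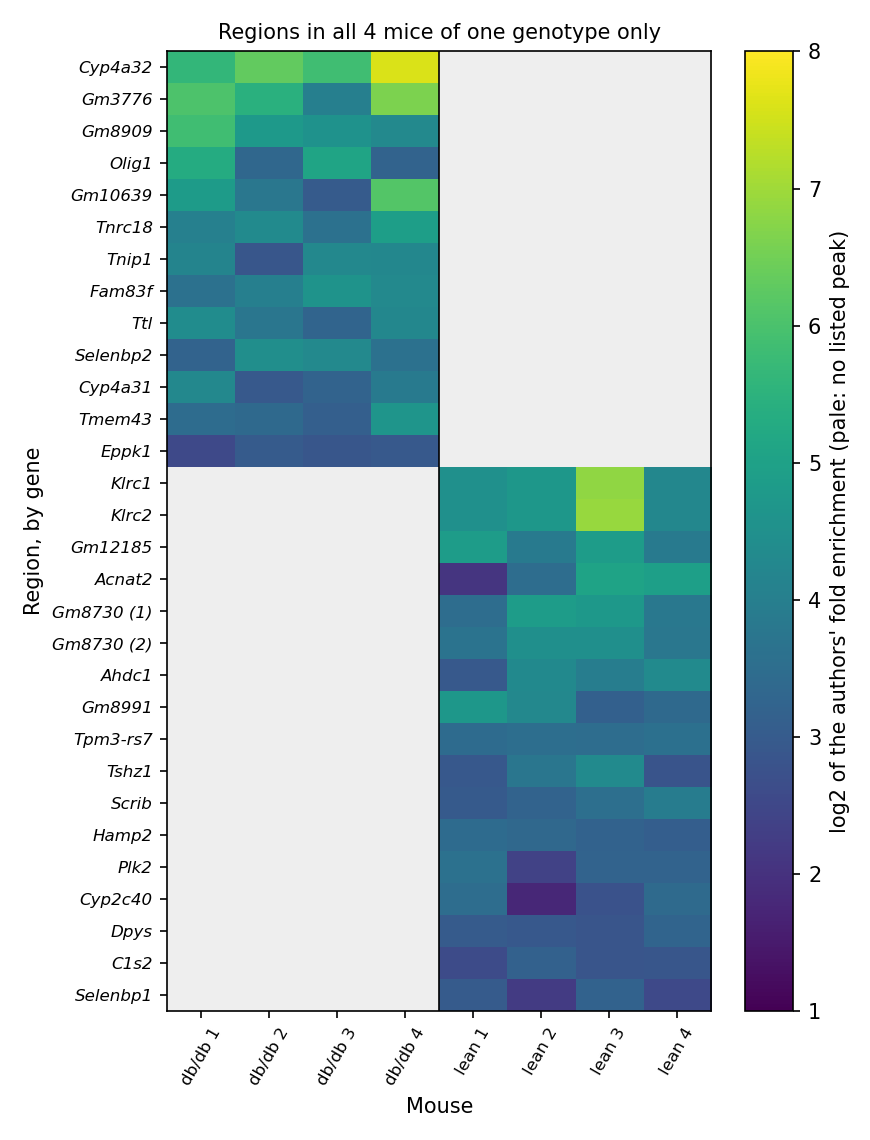
The log2 of the authors' fold enrichment (colour) for the 30 regions found in 4 mice against 0 (rows, by gene; a number marks repeated regions of a gene) in each mouse (columns); pale cells had no listed peak. The highest row is Cyp4a32, with folds of 49.3 to 195 in db/db mice.

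Enzymes of drug, fatty acid and steroid metabolism were members of both directions. By symbol stem, cytochrome P450s, selenium-binding proteins and other detoxifying or steroid enzymes made up 7 db-biased regions (8.14%) in 5 genes. On the lean-biased side they made up 14 regions (11.8%) in 7 genes, against 2.31% of balanced and 1.39% of all regions. Predicted genes, such as Gm3776 and Gm10639, were kept out of this class whatever they encode. They held 9.30% of db-biased and 12.6% of lean-biased regions, so the shares of the enzymes are incomplete. The db-biased ones were in Cyp4a31 and Cyp4a32, which belong to a family of fatty acid hydroxylases, in Cyp2b10 and Cyp2b13 of the drug-metabolising Cyp2b family, and in Selenbp2. At the start of Cyp4a32 (gene ID 100040843), at 115600938 to 115601163 of chromosome 4, db/db mice 1 to 4 had folds of 49.3, 79.1, 57.4 and 195. No lean mouse had a listed peak anywhere in that gene. A second Cyp4a32 region, 90 bases long, had folds of 9.34, 7.68 and 10.4 in db/db mice 1, 3 and 4. Cyp4a31 (gene ID 666168) held 2 members 517 bases apart, and its shorter one, at 115565671 to 115565715, had folds of 19.2, 7.78, 9.37 and 14.7 in db/db mice 1 to 4. All 4 lean mice had a peak somewhere in that gene. At the start of Cyp2b13 (gene ID 13089), at 26061495 to 26061663 of chromosome 7, the folds were 40.4, 20.0, 13.9 and 14.6 in db/db mice and 13.9 in lean mouse 1. The region began at the annotated first base. Cyp2b10, the Cyp2b gene best known for its induction by phenobarbital, had folds of 14.2, 4.95 and 10.2 in db/db mice 1 to 3 in a region of 66 bases, its only one.

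The lean-biased enzymes were in Hsd3b4 and Hsd3b5, of the 3-beta-hydroxysteroid dehydrogenase family, Cyp3a41a, Cyp2c40, Cyp2a22, Selenbp1 and Aldh3a2, a fatty aldehyde dehydrogenase. Most of the lean-biased enzyme regions were in Hsd3b4 and Cyp3a41a. Hsd3b4 (gene ID 15495) had members of 90 bases at 3 places of chromosome 3, starting at 98456435, 98509875 and 98563346, and only the second lay inside the annotated gene. At the second, the folds of lean mice 1 to 4 were 109, 429, 307 and 418, and that of db/db mouse 4 was 34.7. At the first they were 112, 439, 310 and 418 and again 34.7, and at the third 53.1, 206, 152 and 209 and 17.3. The order of lean mice 2 and 4 was reversed at the third. In each region, lean mouse 1 was the lowest lean mouse and db/db mouse 4 lay below all lean mice. The 3 regions had equal length, and the first 2 had equal folds in 2 of 5 mice. Their values are therefore not independent, and the repeated order of mice is not separate evidence. Cyp3a41a (gene ID 53973) held 5 members on chromosome 5, of 37 to 114 bases, and 3 of these lay outside the annotated gene. Whether these 5 members are independent of each other was not tested. The strongest of them, at 145717925 to 145717998, had folds of 68.2, 154, 211 and 203 in lean mice 1 to 4. The lone db/db peak there, in mouse 1, had the highest fold of all, 250. At the start of Hsd3b5, 62 bases from 98645473, lean mice 1, 2 and 4 had folds of 11.2, 5.38 and 8.47. No db/db mouse had a listed peak there, although 2 had one elsewhere in the gene. Cyp2c40 (gene ID 13099) held 2 members, 1 of 93 bases at 39807585 of chromosome 19 with folds of 11.3, 3.41, 6.75 and 10.8, and 1 at its start. No db/db mouse had a peak in that gene.

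Secreted proteins of the blood, a main product of hepatocytes, made up 8 lean-biased regions in 6 genes (6.72%) and 1 db-biased region (1.16%), against 0.711% of balanced and 0.669% of all regions. The lean-biased genes were Hamp2, a hepcidin, C1s2, a protease of the first complement component, the major urinary protein genes Mup4 and Mup6, Orm3, an orosomucoid, and Serpina3m. Hamp2 (gene ID 66438) held 2 members. The one at its start, 30924049 to 30924181 of chromosome 7, had folds of 10.95, 10.3, 9.20 and 8.46 in lean mice 1 to 4. The other, 60 bases at 30922696, had 5.28, 8.02 and 4.90 in lean mice 2 to 4. No db/db mouse had a listed peak in that gene. C1s2 (gene ID 317677) also held 2, and the one at 124635482 to 124635689 of chromosome 6 had folds of 6.01, 8.95, 7.17 and 7.28 in lean mice, a narrow range. All 4 db/db mice had peaks elsewhere in C1s2, a gene with 10 other regions. In Mup4 (gene ID 17843), which carries pheromones in urine, the region at 59960039 of chromosome 4 had folds of 94.8, 100.4, 224 and 276 in lean mice and 68.2 in db/db mouse 1. The db-biased member was at the start of Serpina1e, an alpha-1-antitrypsin gene, 42 bases with folds of 17.1, 13.3 and 5.17 in db/db mice 2 to 4. No lean mouse had a peak in it.

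Genes of lipid and intermediary metabolism gave few members. Lipid genes made up 1 db-biased and 3 lean-biased regions, 1.16% and 2.52%, against 2.22% of balanced and 1.48% of all regions. The db-biased one was in Scd4, a stearoyl-CoA desaturase, at 44334127 to 44334237 of chromosome 19, with folds of 26.9, 45.7 and 19.5 in db/db mice 1, 2 and 4. Scd4 had peaks at other places in 3 of the lean mice. The lean-biased ones were in Acnat2, which conjugates acyl groups to amino acids, Acss2, an acetyl-CoA synthetase, and Scarb1, the scavenger receptor that takes up HDL cholesterol. In Acnat2 (gene ID 209186) the folds spread widely, with 4.20, 11.4, 33.6 and 30.7 in lean mice 1 to 4. In Scarb1, at 125340768 of chromosome 5, they were 7.15, 6.22, 9.80 and 10.4 in lean mice, and db/db mouse 1 was above them at 16.5. In Acss2 they were 7.16, 14.0, 10.1 and 5.93, and db/db mouse 3 was below them at 5.58. Dpys (gene ID 64705), an enzyme of pyrimidine breakdown, had folds of 8.06, 7.68, 7.19 and 9.64 in lean mice, at 39857280 to 39857470 of chromosome 15. Pfkfb3, which sets the level of a regulator of glycolysis, had 12.7, 5.66 and 21.9 in lean mice 1 to 3. Abcd2, a carrier of very long-chain fatty acids into peroxisomes, had folds of 22.8, 6.74 and 14.6 in lean mice 1, 2 and 4, and no db/db mouse had a listed peak in that gene.

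Cytoskeletal, adhesion and matrix genes made up 8 db-biased regions (9.30%) in 5 genes and 6 lean-biased regions (5.04%) in 6 genes, against 3.82% of balanced and 4.11% of all regions. Plec, which encodes the cytoskeletal linker plectin, held 3 db-biased regions on chromosome 15, of 663, 549 and 321 bases. At the longest the folds were 9.77, 6.60 and 4.14 in db/db mice 1 to 3, and at the shortest 9.62, 10.5, 13.0 and 5.66 in db/db mice 1 to 4 with 6.26 in lean mouse 2. The gene is long, with 19 regions besides its longest member, and all 8 mice had a peak somewhere in it. Close by lay Eppk1, which encodes epiplakin, another plakin. At 76110801 to 76111092 it had folds of 5.86, 8.09, 7.31 and 7.77 in db/db mice 1 to 4. In the opposite direction, and 63494 bases before Eppk1, lay a region of the polarity gene Scrib, with folds of 7.90, 9.32, 11.8 and 15.4 in lean mice 1 to 4. The non-muscle myosin heavy chain gene Myh14 held 2 db-biased regions and Myh9 held 1, while the myosin gene Myo5b was lean-biased. The first Myh14 region had 18.6, 15.2 and 15.2 in db/db mice 1, 3 and 4, and the second 31.0, 6.68 and 8.12 in db/db mice 1 to 3. Besides Myo5b, the lean-biased genes were Actn1, an actinin, Hspg2, the proteoglycan perlecan, Pard3, Scrib and Tubb2a.

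Kinase, phosphatase and GTPase genes made up 7 db-biased (8.14%) and 4 lean-biased regions (3.36%), against 4.09% of balanced and 5.99% of all regions. Ppp3ca, the catalytic subunit of calcineurin, had its only region at 136670133 to 136670207 of chromosome 3, with folds of 20.7, 22.9 and 28.2 in db/db mice 1, 2 and 4. It had no listed peak in lean mice. Arhgap32, a GTPase-activating protein, had 20.5, 13.2, 19.4 and 13.9 in lean mice 1 to 4, all above the 6.79 of db/db mouse 3. Hras, which encodes a small GTPase and was chosen after its values were seen, had a db-biased region of 537 bases with folds of 7.85, 5.79 and 10.7 in db/db mice 1, 3 and 4. Hif1a, the oxygen-regulated transcription factor, also chosen after its values were seen, had 14.5, 34.0, 10.3 and 28.7 in lean mice 1 to 4 and 11.5 in db/db mouse 2, within their range.

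Regulators of transcription gave members of both directions. Chromatin genes made up 1 db-biased region (1.16%) and 5 lean-biased ones (4.20%), against 4.00% of balanced and 3.37% of all regions. The db-biased one was in Tnrc18 (gene ID 231861), at 142817559 to 142817640 of chromosome 5, with folds of 16.5, 20.6, 12.2 and 30.3 in db/db mice 1 to 4. Ahdc1, an AT-hook protein gene, had 7.78, 20.1, 15.5 and 20.2 in lean mice 1 to 4. Both are long genes with many regions, and all 8 mice had a peak somewhere in each. Kdm5b, a histone demethylase, had 24.1, 18.2 and 20.9 at its start in lean mice 2 to 4. The histone H3 genes Hist1h3c and Hist1h3i had a peak at the start in 3 lean mice and 0 db/db mice, while 3 db/db mice had a peak elsewhere in each gene. Foxa1, a pioneer factor of hepatocytes, had a db-biased region of 593 bases with folds of 11.5, 6.81 and 15.4 in db/db mice 1 to 3. Sox9, a factor of bile duct cells, had 25.3, 29.2 and 29.2 in lean mice 1, 2 and 4, and 3 db/db mice had peaks elsewhere in the gene. Tshz1 had 7.63, 13.5, 20.4 and 7.01 in lean mice 1 to 4. Zinc finger genes were 4 and 4 (4.65% and 3.36%), near the 3.11% of balanced and 3.12% of all regions. Among them Zfp942 and Zfp943 start back to back on opposite strands of chromosome 17, and their lean-biased regions lay 88 bases apart. As the lists give no strand, the gene of origin of these peaks cannot be told apart. Olig1 (gene ID 50914), a transcription factor gene best known from oligodendrocytes, had folds of 39.8, 10.2, 34.1 and 9.41 in db/db mice 1 to 4, at 91270061 to 91270384 of chromosome 16.

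Genes of RNA processing and translation made up 5 db-biased (5.81%) and 4 lean-biased regions (3.36%), against 7.82% of balanced and 4.19% of all regions. Zc3h13, a subunit of the m6A writer complex, had a db-biased region of 125 bases with folds of 18.6, 15.0 and 13.0 in db/db mice 1, 3 and 4, and all 4 lean mice had other peaks in the gene. Sf3b4, a splicing factor, had 18.1, 9.03 and 12.4 in the same mice. The lean-biased ones were in Dhx38, a splicing helicase, Rbm10, and the mitochondrial ribosomal protein genes Mrps31 and Mrpl55. Tnip1, an inhibitor of inflammatory signalling, had folds of 17.8, 7.32, 19.4 and 18.9 in db/db mice 1 to 4. Sparc, a matrix glycoprotein of stellate and endothelial cells, had 18.6, 43.5, 18.0 and 17.3 in db/db mice, all above the 10.7 of lean mouse 3. Plk2, a polo-like kinase, had 12.3, 5.24, 9.41 and 9.29 in lean mice. Of the remaining regions with 4 and 0 mice, Ttl, a tubulin tyrosine ligase gene, had 21.1, 13.5, 9.64 and 18.9 and Fam83f 12.3, 16.4, 24.4 and 19.5 in db/db mice. Tmem43 and Gm8909 had 8.61 to 25.3 and 19.5 to 57.9. On the lean side, the predicted gene Gm12185 had 14.6 to 29.4 and Gm8991, a predicted pseudogene per the deposited annotation, 8.89 to 26.1. Neither had a listed peak in db/db mice.

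By symbol stem, immune receptor, antigen presentation and interferon genes made up 3 lean-biased regions (2.52%) and 0 db-biased ones. Their share was 2.40% of balanced and 1.88% of all regions. Gm8909, set apart as predicted by its symbol, is under antigen processing and presentation in the deposited annotation. Its db-biased region had 4 db/db and 0 lean mice. Besides Ifitm7 the lean-biased genes were Klrc1 and Klrc2, receptors of natural killer cells, each with a member of 62 bases. Klrc1 had folds of 22.7, 25.9, 115 and 18.8 in lean mice 1 to 4, and Klrc2 had the same values except 120 in lean mouse 3. The regions had equal length and equal folds in 3 of the 4 mice, and that of Klrc2 lay outside the annotated gene, so their values are not independent. In a list of 12 markers of natural killer, T and B cells, only Klrc1 and Klrc2 had a peak in any mouse. Both are members, so their counts per mouse follow from the rule and say nothing further about these cells. The part of cell numbers in their peaks was not tested. Of the other marker lists, 3 of 12 hepatocyte markers, 7 of 8 Kupffer cell markers, 8 of 8 stellate cell markers, 8 of 8 sinusoidal endothelial markers and 3 of 5 bile duct markers had a peak in some mouse, and 0 of 4 adipocyte markers. Alb, Apob and Cps1 were among the hepatocyte markers with no listed peak. The presence of a peak depends on methylation as well as on expression, so the lists do not test the tissue label.

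Pseudogenes and repeated copies stood mostly among the lean-biased regions. Annotated pseudogenes held 9 of 119 lean-biased regions (7.56%) and 1 of 86 db-biased ones (1.16%), against 3.47% of balanced and 1.68% of all regions. Gm8991, which matched no RefSeq gene, is not among these 9. Gm8730, a pseudogene of the ribosomal protein gene Rplp0 per the deposited annotation, held 3. Its longest, 414 bases at 102865238 of chromosome 8, had folds of 12.6, 22.6, 22.6 and 13.7 in lean mice 1 to 4, and no db/db mouse had a peak in that gene. Tpm3-rs7, a copy of the tropomyosin gene Tpm3, held 2, and the longer one had folds of 11.01, 11.5, 11.3 and 12.0 in lean mice. Members lay outside the bounds of the gene they were named after in 8 of 115 lean-biased regions with an annotated gene (6.96%) and 0 of 84 db-biased ones, against 1.28% of balanced regions. Most of these 8 were in Cyp3a41a and Hsd3b4. As with Gm8730 and Tpm3-rs7 among the pseudogenes, each region of a gene was counted, so these shares do not rest on independent regions. A gene of the same symbol stem lay within 1 Mb for 36 lean-biased (30.3%), 14 db-biased (16.3%) and 13.7% of balanced regions. Predicted genes and numbered clones were given no stem. The similar db-biased neighbours Gm3776 and Gm10639 were therefore not counted, and these shares are incomplete. How the authors' mapping treated reads that match several copies is not given in the sources used here, and the values of such regions are uncertain. On the db/db side, Gm3776 had 66.1, 43.5, 16.3 and 97.5 and Gm10639 had 28.9, 13.7, 8.08 and 69.3 at their starts in db/db mice 1 to 4, in the same order of mice. The part of copies in these values was not tested.

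Neighbouring members of different genes, within 1 Mb of each other, formed 27 pairs of regions with the same direction and 19 with opposite directions. Genes with several members entered more than once. Examples are Cyp4a31 with Cyp4a32, Hsd3b4 with Hsd3b5 and Eppk1 with Plec in the same direction, and Scrib with Plec in opposite directions. The pairs are therefore not independent, and the counts to be met without any link between neighbours were not computed. Pairs of opposite direction included Selenbp2 and Selenbp1 on chromosome 3, whose regions of 346 and 352 bases both lay at the end of the gene. Selenbp2 had folds of 9.46, 22.1, 19.8 and 12.1 in db/db mice and Selenbp1 of 8.13, 4.69, 9.15 and 5.79 in lean mice. No db/db mouse had a peak in Selenbp1 and no lean mouse in Selenbp2. By chromosome, the lean-biased regions were most numerous on chromosome 5, with 12 (10.1%, against 7.20% of balanced regions), of which Cyp3a41a gave 5. The db-biased ones were most numerous on chromosome 7, with 8 (9.30%, against 8.18%).

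Length differed between the directions and was not part of the rule, but wider regions can collect more mice by merging. The median length was 168.5 bases in db-biased regions (quartiles 111 and 286), 118 in lean-biased ones (85.5 and 172.5) and 137 in balanced ones (96 and 214). All regions together had a median of 67, since most had a peak in 1 mouse. Regions of 300 bases or more were 20 of 86 db-biased (23.3%), 9 of 119 lean-biased (7.56%) and 10.9% of balanced regions. Single peaks showed the same order, with medians of 101 to 124.5 bases in the db-biased regions of the 4 db/db mice and 80.5 to 93.5 in the lean-biased regions of the 4 lean mice. These ranges did not overlap, although the median peak length of the whole lists was 53 to 88 in db/db and 70 to 76 in lean mice (means 74.5 and 74, exact permutation p = 1). The 2 sets are different regions, each chosen through the genotype measured. In balanced regions the medians overlapped, with 80 to 115 bases in db/db and 86 to 110 in lean mice. In db/db mouse 1 the db-biased median of 105.5 was below its balanced one of 113, and in db/db mice 2, 3 and 4 it was above. With lists of equal length the medians of the regions were 125 and 116.5 bases, with 43 and 118 regions. Without db/db mouse 3 the order turned, to 115 and 118.5. Among the regions with 4 and 0 mice alone the order was the other way, 117 bases for db-biased and 180 for lean-biased.

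**Figure D4:**
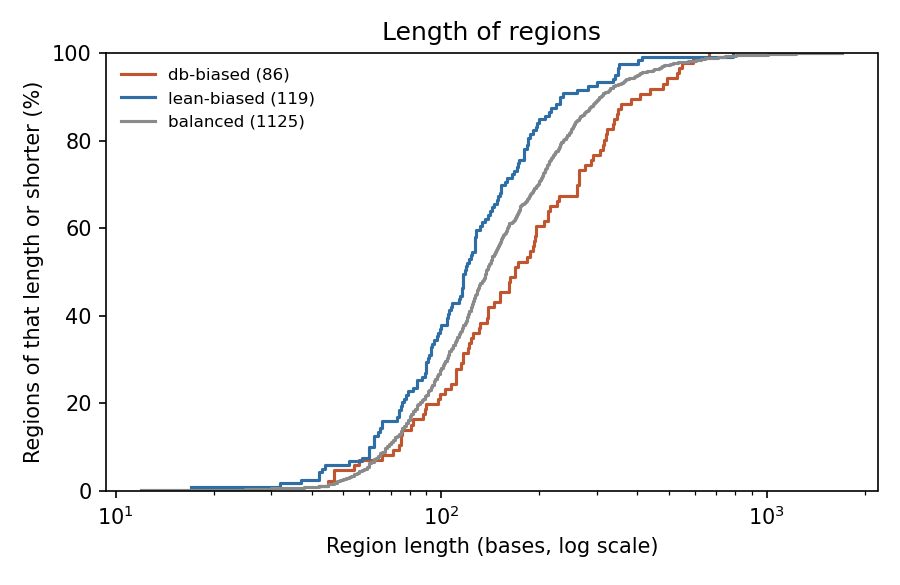
Share of regions (vertical axis, %) of a given length or shorter (horizontal axis, bases, log scale) for db-biased (orange), lean-biased (blue) and balanced regions (grey). The median is 168.5 bases for db-biased, 118 for lean-biased and 137 for balanced regions.

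The place of a region along its gene could be read for 61 db-biased and 75 lean-biased regions, those inside the bounds of a gene of known strand. Both ends of genes held most of them. In the first 20% of the gene, counted with introns, lay 24 db-biased (39.3%) and 33 lean-biased regions (44%), against 36.7% of balanced and 25.1% of all regions. In the last 20% lay 21 of each, which is 34.4% and 28%, against 34.5% and 38.7%. Within 1000 bases of the end of the gene lay 8 (13.1%) and 14 (18.7%), against 15.9% of balanced regions. Over the start window of their own gene lay 11 of 61 db-biased (18.0%) and 24 of 83 lean-biased regions (28.9%), against 25.2% of balanced and 11.7% of all regions with such a window. In 6 (9.84%) and 13 (15.7%) of the regions with a window the upstream edge was within 5 bases of the annotated start, against 9.67% of balanced and 4.25% of all such regions, so that the db-biased share was close to that of balanced regions. Examples are Cyp4a32, Cyp2b13, Gm3776, Hamp2 and Hsd3b5, where it was the first base itself. No member overlapped an annotated gene of 400 bases or less, of any type. Such overlap was rare everywhere, with 7 of 1125 balanced and 81 of all 17936 regions, so its absence does not set the members apart.

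**Figure D5:**
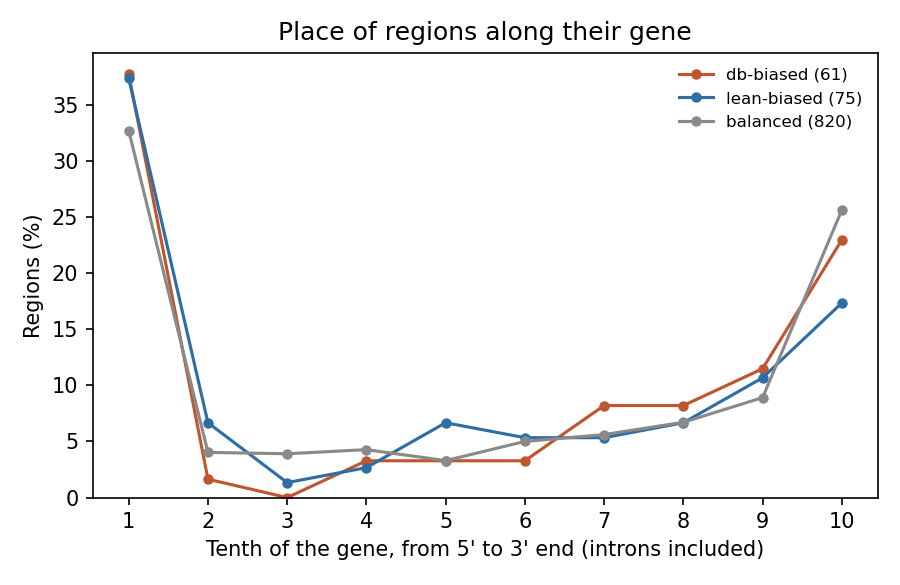
Share of regions (vertical axis, %) by position in the gene from the 5′ to the 3′ end with introns included (horizontal axis, 10 bins) for 61 db-biased (orange), 75 lean-biased (blue) and 820 balanced regions (grey). The first 20% held 39.3%, 44% and 36.7% of them and the last 20% held 34.4%, 28% and 34.5%.

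The first transcribed base, as annotated, was A in 15 of the 35 members over a start (42.9%), against 33.7% of 208 balanced regions over a start and 34.4% of all 32851 start windows. By direction it was A in 4 of 11 db-biased and 11 of 24 lean-biased regions. Within the first 50 bases on the transcribed strand, GGAC was found in 11 of 35 members (31.4%), among them Cyp4a32, Cyp2b13, Folr2 and Pias1, and in 26.0% of balanced and 18.9% of all windows. The same letters on the other strand, GTCC, were found in 7 of 35 (20%), 20.2% and 17.4%. Matches to these motifs cannot overlap, and a match is a description of the sequence, not a mapped site.

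Peaks elsewhere in the same genes were not used by the rule. Of the 80 genes with a db-biased region, 63 had 264 other regions that were no members, with 283 db/db and 192 lean peaks counted once per region and mouse. In 39 of these genes db/db mice had more such peaks, in 17 lean mice did, and 7 were equal. Of the 106 genes with a lean-biased region, 81 had 275 others, with 260 db/db and 287 lean peaks. There db/db mice had more in 32 genes, lean mice in 36, and 13 were equal. Over all 17731 regions that were no members the counts were 15026 and 12197, which follows the longer db/db lists. In the db-biased genes, db/db mouse 1 had the most such peaks, 106, against 55 to 63 in the other db/db mice, and lean mice had 45 to 51. In the lean-biased genes, lean mice had 60 to 84 and db/db mice 51 to 83, so that the groups overlapped. In 55 of the 80 genes and 78 of the 106, at least 1 mouse of the other genotype had a peak somewhere in the gene. These counts include genes such as Lcor and Acss2, whose only such peak was inside the member itself. They therefore do not tell how many members marked a place within a gene and not the whole gene. The other 25 and 28 genes, among them Cyp4a32, Selenbp2, Fam83f and Ppp3ca on one side and Hamp2, Dpys, Cyp2c40, Selenbp1 and Gm8730 on the other, had no listed peak in the other genotype.

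In 52 regions, 15 db-biased and 37 lean-biased, a lone mouse of the other genotype had a peak. By within-list percentile it lay below all 4 mice of the first genotype in 2 db-biased and 10 lean-biased regions, above all 4 in 2 and 10, and within their range in 11 and 17. Folds of lone mice were thus not uniformly low. The highest was near the start of Itsn1, an endocytic scaffold gene, where db/db mouse 1 had a fold of 293 and lean mice 1 to 4 had 12.6, 8.68, 66.8 and 35.5. Id1, an inhibitor of basic helix-loop-helix factors, had 52 in db/db mouse 4 and 16.8, 12.4, 15.1 and 23.0 in lean mice. Folr2, a folate receptor of macrophages, was chosen after its values were seen. At an annotated start inside that gene, db/db mouse 3 lay below all lean mice, at 5.54 against 9.55 to 25.1. The lone mouse was lean mouse 1, which had the longest lean list, in 8 of the 15 db-biased regions.

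Regions just inside the rule, with a difference of 3, numbered 73 on the db/db side and 102 on the lean side, with median lengths of 169 and 116.5 bases and median folds of 9.46 and 12.4. Those just outside it, with a difference of 2, numbered 715 and 521, with 123 and 103 bases and folds of 10.4 and 11.7.

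By the pathways of the deposited annotation, which covered 23 of 80 db-biased and 45 of 106 lean-biased genes, against 376 of 1001 balanced genes and 2971 of all 8284 genes, the retinol pathway held 4 and 3 of its 40 genes with any region, and 9 held a balanced region. The arachidonic acid pathway held 4 and 1 of 28, with 3 balanced, and steroid hormone biosynthesis 2 and 4 of 41, with 13 balanced. PPAR signalling, the response to fatty acids, held 3 of 28 genes among the db-biased (Cyp4a31, Cyp4a32 and Scd4) and 0 among the lean-biased, with 7 balanced. Regulation of the actin cytoskeleton held 5 (Hras, Myh14, Myh9, Pip4k2b and Wasl) and 3 of 106, with 14 balanced. Tight junction genes were 4 and 4 of 69, with 14 balanced. These pathways were chosen after their counts were seen.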

How the data were processed

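The 8 libraries of immunoprecipitated liver RNA, 1 per mouse, were analysed through their deposited peak lists, each matched by the name of its sheet to a sample title. The 8 input libraries were not analysed here. The submitters' processing notes name cutadapt 1.9.3, HISAT2 2.0.4 and the build mm10. Peak names begin with MACS in the files, which hold a separate list for each mouse. Neither the version of the peak caller nor its use of input is stated in those sources. Fold enrichment is a ratio deposited by the authors, per the file headers, with no statement of its background. The deposited score is -10 times the log10 of the p-value, at least 50. A column that repeats the score, in 8 lists, was not used. No read counts were given, so depth was unknown and no counting interval could be made.

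Starts were converted to count from 1, and merging, counts and folds (highest peak of a mouse in a region) were computed with Python 3.11.15 and pandas 2.3.3. The merging was checked on simulated data. Gene bounds and start windows were those of RefSeq (GRCm38.p6): 199 of 205 members matched a gene and 144 a start window, and 136 could be placed on a strand. Gene classes were defined by symbol stems, some of which were corrected after the data were seen. Values per mouse were compared by an exact two-sided permutation test over 70 assignments, whose smallest p is 0.0286. Members are not replicates, so sets of regions were described without tests. The labels call the mice separate samples. Members, classes and lists were chosen with earlier results of these data known. Regions to name were those with 4 and 0 mice, the 12 per direction of highest percentile among the other members (predicted genes left out), 2 per class and direction, genes with several members, and regions in which a lone mouse was highest. Of these, some are only summarised, and other members named, such as Cyp2b10, Cyp2a22, Hist1h3c and those shown for their start sequence, were chosen after their values were seen. Some members are not reported here by name.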

Additional observations from a re-analysis of the deposited data

Results flagged for a closer look

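Of 66 groups of 4 values examined, 6 held a mouse set apart from the others by most of the group's range, and chance alone flags about 1 in 20 groups. Lean mouse 3 had 98 of the lean-biased regions, against 104 in the nearest other lean mouse, and its list was the shortest. Fold enrichment stood apart in 5 named regions. At Sparc, db/db mouse 2 had 43.5 (43.45), with 18.6 next. At Tmem43, db/db mouse 4 had 25.3, with 11.2 next. At Tnip1, db/db mouse 2 had 7.32, with 17.8 next. At Klrc1 and Klrc2, lean mouse 3 had 115 and 120, with 25.9 next in both. The Klrc1 and Klrc2 values are not independent, since the folds of the other 3 lean mice were equal in both.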

How the results depend on the processing

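The counts of 86 and 119 regions were 80 and 115 with folds of at least 4.7, 87 and 117 when peaks had to share 50% of the shorter one, and 86 and 119 when merged by position alone. With p at most 1e-10 they were 32 and 52, median lengths were 184 and 105 bases and median folds 14.6 and 19.7 (db-biased first). With 2475 peaks per list, 43 regions were db-biased, of median length 125 and fold 15.9, and 118 lean-biased, of 116.5 and 13.7, so that the order of the folds turned. The list differences, db/db minus lean, turned to -1.75 bases (exact permutation p = 0.8) and 1.46 in fold (exact permutation p = 0.286); the cause was not tested. The number of peaks per mouse is then equal by construction. Leaving out each mouse gave 23 to 158 db-biased and 31 to 200 lean-biased regions, since fewer mice change what the rule asks. Their median lengths were 115 to 199.5 and 117 to 150.5 bases and median folds 9.80 to 14.7 and 10.9 to 13.3. The order of the folds turned without db/db mouse 1, 2 or 3, and that of the lengths without db/db mouse 3. The difference in median peak length was -4 to 7.67 bases, that in median fold -1.26 to -0.149 and that in peaks 382 to 1091. Same-numbered mice shared only a number, with correlations of -0.0353 to 0.00364. With the replicate block the counts were 86 and 119, as the rule requires, and the exact permutation p over sign changes was 0.25 for peaks and 1 for length, where 4 pairs cannot give less than 0.125. With no depth, a missing peak may be too few reads.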
